A study of Mus musculus with 8 samples.

Results

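Immediate early genes are switched on within minutes of a stimulus, and 10 of them (Fos, Fosb, Jun, Junb, Jund, Egr1, Ier2, Ier3, Atf3 and Zfp36) were followed here through 8 RNA-seq libraries of sorted embryonic cells. They were chosen by symbol from the 24015 genes of the count table, and all 10 were among the 13908 genes with enough counts to test. The cells came from mouse embryos at E11.5 on a C57BL/6 background, from the aorta-gonad-mesonephros region (AGM) with the vitelline and umbilical arteries, the tissue in which the first hematopoietic stem cells form. Hematopoietic clusters were sorted as Ter119- VE-Cadherin+ c-Kit+ cells and endothelium as Ter119- VE-Cadherin+ c-Kit- CD41- CD45- cells, each from wild type (WT) and Sl/Sl embryos. Sl/Sl embryos carry a deletion at the Steel locus that takes in Kitl, the gene for Kit ligand, in every cell of the embryo. Each library held 100 cells from embryos pooled by genotype, and each of the 4 groups had 2 libraries. The study calls its libraries biological replicates. Neither it nor the labels say which library came from which sort or which pool of embryos, and p-values measure only the spread between these libraries. All samples were dissociated with a Collagenase I-based digestion before sorting, and no group was left undigested.

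Immediate early genes need no new protein to be transcribed: growth factor receptors such as Kit act through Ras and the MAP kinases on transcription factors, among them SRF with its Elk partners and CREB, which already sit at these promoters. Fos and Jun proteins pair to form AP-1, which with Egr1 and Atf3 drives a later set of genes, while Zfp36 binds AU-rich messages and speeds their decay, including those of the early genes themselves. Besides growth factors, the same genes answer stress, flow and handling, and tissue dissociation at warm temperature is a known inducer of them. Fos was among the genes the study listed, from earlier work in porcine aortic endothelial cells, as raised by Kitl. The study measured the listed genes by qRT-PCR in sorted progenitors of both genotypes. It reported that few of them changed significantly when Kitl was lost. The levels of Fos with and without Kitl are therefore of direct interest.

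The promoters of these genes hold short elements through which such signals act, and they are shown because they differ from member to member. RefSeq promoter windows were matched by symbol for 8 of the 10 genes, all except Egr1 and Ier2. Within the 250 bases before each start, both strands were searched for TGACG (the core of the cyclic AMP response element, bound by CREB and ATF factors), for the CArG box bound by SRF, for the AP-1 element TGANTCA, and for TATAAA. The first of these lay in 4 of 8, Fos, Fosb, Junb and Atf3, against 17.8% of 32851 promoter windows of the same length. The CArG box lay in Zfp36 alone of the 8, against 1.47% of windows, and TATAAA in Fos alone, against 12.4%. TGANTCA lay in none of the 8, against 6.75% of windows. A CArG box can hold TATAAA within it, which the one in Zfp36 does not, and a match describes letters only. Bases further upstream were not searched, and neither were Egr1 and Ier2. A missing match therefore does not show that a gene lacks the element. The last 120 bases before the start of the 5 genes with a match are given here in the direction of transcription from GRCm38.p6, with the matched letters in capitals. They are chr12:85473770-85473889 on the plus strand for Fos, and on the minus strand chr7:19310046-19310165 for Fosb, chr8:84978749-84978868 for Junb, chr1:191183334-191183453 for Atf3 and chr7:28379229-28379348 for Zfp36.
Fos: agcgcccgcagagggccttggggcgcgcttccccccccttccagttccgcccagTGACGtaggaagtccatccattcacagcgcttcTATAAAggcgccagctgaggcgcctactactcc
Fosb: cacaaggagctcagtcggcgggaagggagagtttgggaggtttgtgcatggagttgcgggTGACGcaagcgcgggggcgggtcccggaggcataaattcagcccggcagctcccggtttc
Junb: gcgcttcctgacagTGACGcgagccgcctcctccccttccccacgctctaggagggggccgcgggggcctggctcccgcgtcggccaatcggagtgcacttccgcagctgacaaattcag
Atf3: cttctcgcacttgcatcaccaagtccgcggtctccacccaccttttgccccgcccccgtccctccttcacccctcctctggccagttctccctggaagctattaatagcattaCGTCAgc
Zfp36: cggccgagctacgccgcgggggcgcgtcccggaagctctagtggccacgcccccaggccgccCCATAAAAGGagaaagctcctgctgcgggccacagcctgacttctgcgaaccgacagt
In Fos the TGACG shown lay at -66 to -62 from the start and a further copy, outside the printed stretch, at -129 to -125. In Atf3 the element is on the opposite strand and so reads CGTCA, at -7 to -3. The CArG box of Zfp36 reads as one on either strand and lay at -58 to -49.

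The counts put on genes ran from 8933236 to 13428214 per library, and the 10 genes together took 0.0334% to 0.0829% of them. Kitl itself, the targeted gene, had 1250 and 923 counts in WT endothelium against 6 and 2 in that of Sl/Sl embryos. In clusters it had 110 and 0 counts in WT against 1 and 3 in Sl/Sl. A count of 0 allows up to 3, so Kitl gave no check on the label of WT clusters replicate 2. Cell type markers set the sorts apart: the summed level of 12 endothelial markers was 7219 to 8093 CPM (counts scaled to the library total) in endothelium and 483 to 3311 CPM in clusters, while 12 hematopoietic markers summed to 260 to 318 CPM in endothelium and 1319 to 1884 CPM in clusters. None of the 12 endothelial markers was at 0 in clusters, but Cdh5, the gene for the VE-Cadherin used in the sort, had 2531 and 154 counts in the 2 libraries of WT clusters and 1817 and 659 in those of Sl/Sl clusters. Replicate 2 was the lower in both genotypes. Clusters also held 278 to 864 CPM of 12 macrophage markers, against 6.91 to 35.1 CPM in endothelium, where Cx3cr1, C1qa and C1qc were at 0 in both WT libraries and Fcgr1, Cd14 and Timd4 in both Sl/Sl libraries. Among the 12, Lyz2 had the most counts in every cluster library, at 7909 and 1675 in WT and 6891 and 4207 in Sl/Sl. The 12 mesenchymal markers ran from 443 CPM in Sl/Sl clusters replicate 1 to 5921 CPM in Sl/Sl clusters replicate 2. Of 11 erythroid markers Hba-a1, Hba-a2, Hbb-b1 and Slc4a1 were at 0 in every library. How reads with several matches were treated is not given, so a count of 0 for globin genes with close copies does not show absence. The 11 summed to 24.4 to 266 CPM in clusters and 32.3 to 109 CPM in endothelium. Hbb-y and Hbb-bh1 were detected in every library. Hbb-y had 51 counts in WT clusters replicate 1 and 2701 in Sl/Sl clusters replicate 1, and Hbb-bh1 had 695 in WT clusters replicate 1. In bulk libraries, fewer cells that express a gene and less RNA per cell cannot be told apart.

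All 10 genes were detected in every library, and their levels spanned more than an order of magnitude. Levels are given as RPKM, counts scaled to the library total and to exon length, which allows genes of different length to be set side by side, as mean ± SD of the 2 libraries. In WT clusters, Fos stood highest at 93.4 ± 22.9 RPKM, followed by Ier2 at 61.7 ± 28.3, Ier3 at 48.0 ± 11.7, Zfp36 at 40.9 ± 4.52 and Egr1 at 28.0 ± 10.8 RPKM. Jun at 14.7 ± 6.76 RPKM, Atf3 at 10.9 ± 11.7, Junb at 9.62 ± 1.16, Fosb at 8.67 ± 3.20 and Jund at 3.57 ± 0.921 RPKM made up the lower part of the order. Of the 9 neighbouring steps in that order, Zfp36 to Egr1, Egr1 to Jun and Fosb to Jund were free of overlap between libraries, and the remaining neighbours overlapped. Ier2 stood first and Fos second in the other 3 groups, at 68.9 ± 30.8 and 44.9 ± 30.8 RPKM in Sl/Sl clusters, 103 ± 23.8 and 50.0 ± 10.8 in WT endothelium, and 132 ± 48.9 and 101 ± 36.9 in Sl/Sl endothelium. The ranges of Ier2 and Fos were apart in WT endothelium and overlapped in the other 3 groups. Jund, the member of the Jun family known for steady expression, had the lowest mean in all 4 groups, between 3.06 and 3.77 RPKM.

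**Figure D1:**
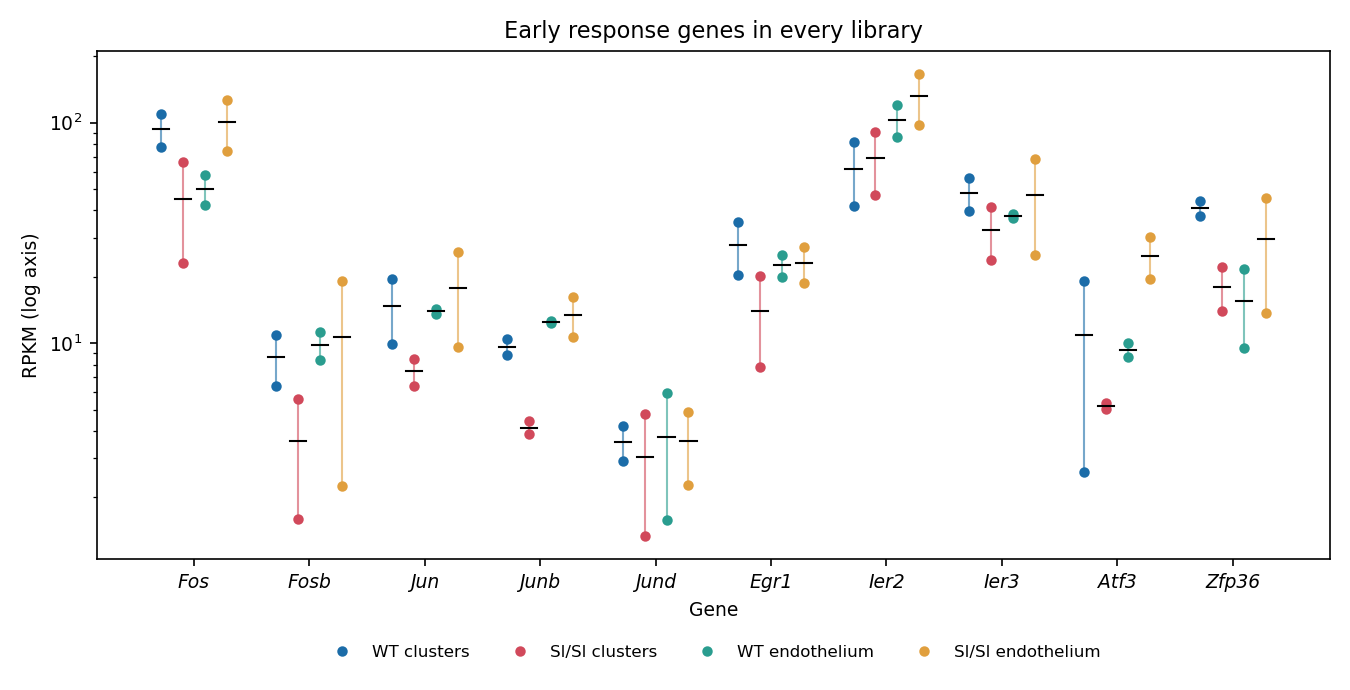
RPKM on a log axis of the 10 immediate early genes in each of the 8 libraries, with 1 point per library coloured by group, a line joining each pair and a bar at its mean. Fos and Ier2 sit at the top in every group and Jund at the bottom, and the points of a pair are often as far apart as the groups.

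The spread within pairs set what could be seen. The median absolute log2 difference between the 2 libraries of a group was 0.64 over the 10 genes in WT clusters, 0.87 in Sl/Sl clusters, 0.37 in WT endothelium and 0.93 in Sl/Sl endothelium, while over all genes tested it was between 0.63 and 0.66. The pairs of Sl/Sl libraries were wider for these genes than the median of all genes tested, and the WT endothelium pair was narrower. This is a description over 10 genes, and the genes they are set against were not matched in abundance. The widest pairs were Fosb in Sl/Sl endothelium, 8.55-fold apart, and Atf3 in WT clusters, 7.38-fold apart. The closest was Junb in WT endothelium, at 1.02-fold.

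Whether cells that lack Kitl show less early gene RNA was asked first in the clusters, which carry the Kit receptor. In Sl/Sl clusters 9 of the 10 genes had lower fitted values than in WT clusters, and the median log2 fold change over the 10 was -1.03 against 0.030 over all genes, of which 47.5% were below 0. No member passed the test: the quasi-likelihood test of edgeR after Benjamini-Hochberg adjustment gave an adjusted p = 1 for each of the 10 and called 0 genes of 13908 (0%) at the 0.1 threshold. At an unadjusted p under 0.05 it held 587 genes, with 0 of the 10 among them, and DESeq2 called 155 genes and 0 of the 10. The study's own DESeq2 analysis also reported genes that differed between genotypes in clusters, and fewer in endothelium, at a false discovery rate under 0.1. For 6 of the 10, Fos, Fosb, Jun, Junb, Egr1 and Zfp36, both Sl/Sl libraries lay under both WT libraries, a pattern that 16.3% of all genes tested showed in that direction. With 2 libraries against 2, an exact permutation test cannot go below p = 0.333.

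Fos (chromosome 12, 86814851 to 86818219 in mm9, plus strand, 4 exons), the founding AP-1 subunit, measured 77.2 and 110 RPKM in WT clusters and 23.1 and 66.6 RPKM in Sl/Sl clusters. Both Sl/Sl libraries were below both WT libraries, and replicate 1 of Sl/Sl stood lowest by a wide margin. The log2 fold change was -1.06 (SE 0.50, unadjusted p = 0.0616, edgeR quasi-likelihood test, adjusted p = 1). Fosb (chromosome 7, 19888045 to 19895394, minus strand, 4 exons), whose protein also pairs with Jun proteins, measured 10.9 and 6.41 RPKM in WT and 1.59 and 5.58 RPKM in Sl/Sl clusters. The groups did not overlap, but Sl/Sl replicate 2 came close to the lower WT library, and the log2 fold change was -1.27 with an SE of 0.97.

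Of the Jun family, which supplies the partner of Fos in AP-1, Jun (chromosome 4, 94715727 to 94718913, minus strand, 1 exon) measured 19.5 and 9.96 RPKM in WT clusters and 6.41 and 8.50 RPKM in Sl/Sl clusters. Its log2 fold change was -0.98 (SE 0.60), with groups apart by little. Junb (chromosome 8, 87500808 to 87502647, minus strand, 1 exon) measured 8.80 and 10.4 RPKM in WT and 4.42 and 3.87 RPKM in Sl/Sl clusters. The pairs of Junb were tight in both genotypes, and the gap between genotypes was larger than the gap within either. Its log2 fold change was -1.21 (SE 0.72, unadjusted p = 0.124, edgeR quasi-likelihood test). Jund (chromosome 8, 73221638 to 73224515, plus strand, 1 exon) measured 4.22 and 2.92 RPKM in WT clusters and 1.34 and 4.78 RPKM in Sl/Sl clusters, on either side of the WT pair. Its log2 fold change of -0.22 (SE 1.16) turned to 0.42 without Sl/Sl clusters replicate 1 and to 0.069 without WT clusters replicate 1.

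Egr1 (chromosome 18, 35020861 to 35024610, plus strand, 2 exons), a zinc finger activator with SRF sites in its promoter, measured 20.3 and 35.6 RPKM in WT clusters and 7.78 and 20.1 RPKM in Sl/Sl clusters. The groups were apart only by the small step between 20.1 and 20.3 RPKM, and the log2 fold change was -1.0 (SE 0.53, unadjusted p = 0.0877). Atf3 (chromosome 1, 192994176 to 193007212, minus strand, 4 exons), a stress-induced member of the ATF family, measured 19.2 and 2.60 RPKM in WT and 5.03 and 5.37 RPKM in Sl/Sl clusters. The Sl/Sl pair lay inside the WT pair, so the log2 fold change of -1.07 (SE 0.88) rested on WT clusters replicate 1 and was 1.00 without that library. Zfp36 (chromosome 7, 29161803 to 29164247, minus strand, 2 exons), the messenger decay factor also called tristetraprolin, measured 37.7 and 44.1 RPKM in WT clusters and 14.0 and 22.1 RPKM in Sl/Sl clusters. Here too the groups were apart, by more than the gap within either pair, with a log2 fold change of -1.18 (SE 0.66, unadjusted p = 0.107, edgeR quasi-likelihood test).

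The Ier genes share a name and not a family, and in both the libraries of the genotypes overlapped. Ier2 (chromosome 8, 87185230 to 87186751, minus strand, 1 exon), a nuclear early response protein, measured 41.7 and 81.7 RPKM in WT clusters and 90.7 and 47.1 RPKM in Sl/Sl clusters. The libraries interleaved, and the log2 fold change of 0.16 (SE 0.46) was the one above 0 among the 10, turning to -0.39 without Sl/Sl clusters replicate 1 and to -0.25 without WT clusters replicate 1. Ier3 (chromosome 17, 35958658 to 35959856, plus strand, 2 exons), which acts in survival signalling downstream of ERK, measured 39.7 and 56.3 RPKM in WT and 41.3 and 23.8 RPKM in Sl/Sl clusters. The groups overlapped, with a log2 fold change of -0.56 (SE 0.58).

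Sl/Sl clusters replicate 1 was the lowest of the 4 cluster libraries for 6 of the 10 genes. That library also held the highest sum of endothelial markers among clusters, 3311 CPM, and the lowest sum of mesenchymal markers, 443 CPM. Its sums of macrophage markers, 864 CPM, and of erythroid markers, 266 CPM, were also the highest among clusters. In Sl/Sl clusters 11 of 12 endothelial markers had fitted values above WT (median log2 fold change 1.00) and 12 of 12 mesenchymal markers did (median 1.38), with 0 called by edgeR's quasi-likelihood test in either list and 5 and 1 at an unadjusted p under 0.05. In each list 1 of 12 had both Sl/Sl libraries above both WT libraries, beside 16.4% of all genes. The endothelial sum was 3311 CPM in Sl/Sl replicate 1 and 854 CPM in replicate 2. The mesenchymal sum was 443 and 5921 CPM, so each shift leaned on a different library. Of the hematopoietic markers 8 of 12 had fitted values below WT (median -0.31), while 8 of 11 macrophage markers (median 0.54) and 5 of 6 erythroid markers (median 2.66) were above, also with 0 called. The part of cell composition in the early gene values was not tested. Without Sl/Sl clusters replicate 1 the median over the 10 genes was -0.71 with 9 of 10 below 0, and without WT clusters replicate 1 it was -0.81 with 8 of 10 below 0. Without Sl/Sl clusters replicate 2 it was -1.31, and without WT clusters replicate 2 it was -0.93, with 9 of 10 below 0 each time.

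**Figure D2:**
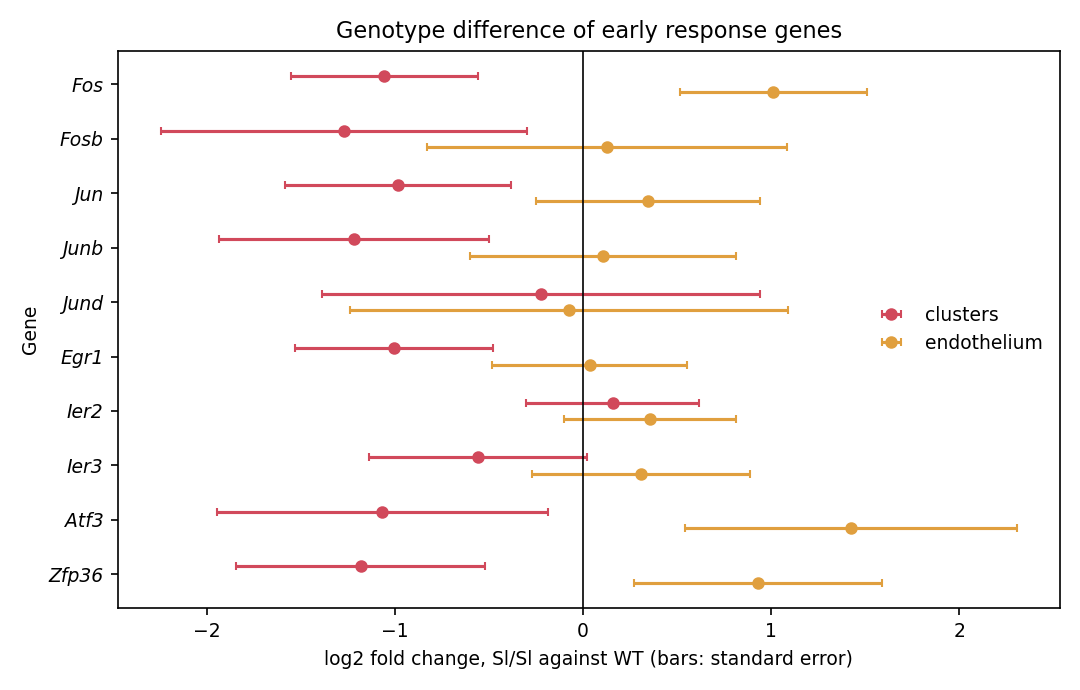
Log2 fold change of Sl/Sl against WT for the 10 genes in clusters and in endothelium, with bars of 1 SE from edgeR's fit and a line at 0. In clusters 9 of 10 points lie below 0 and in endothelium 9 of 10 lie above 0, with an adjusted p of 1 for every point.

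In endothelium, which was sorted as c-Kit negative, the fitted values went the other way for most of the genes. Kit RNA was lower in endothelium but present, at 12.4 to 16.3 RPKM, beside 43.3 to 73.1 RPKM in clusters. Of the 10, 9 had higher fitted values in Sl/Sl than in WT endothelium, with a median log2 fold change of 0.33 against -0.0014 over all genes, of which 48.0% were above 0. Again no member passed: the quasi-likelihood test of edgeR after Benjamini-Hochberg adjustment called 0 of 13908 genes (0%), 580 had an unadjusted p under 0.05 with 0 of the 10 among them, and DESeq2 called 119 genes. Fos measured 42.3 and 57.6 RPKM in WT endothelium and 127 and 74.5 RPKM in Sl/Sl endothelium. Both Sl/Sl libraries were above both WT libraries, and the log2 fold change was 1.01 (SE 0.50, unadjusted p = 0.0716). Atf3 measured 9.97 and 8.64 RPKM in WT and 30.3 and 19.6 RPKM in Sl/Sl endothelium, likewise apart, with a log2 fold change of 1.42 (SE 0.88). These were the only 2 of the 10 with Sl/Sl above WT in every library, against 13.5% of all genes tested.

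The other 8 genes overlapped between genotypes in endothelium. Zfp36 measured 21.6 and 9.56 RPKM in WT and 45.7 and 13.7 RPKM in Sl/Sl, Jun 14.3 and 13.6 against 25.8 and 9.60 RPKM, and Fosb 11.2 and 8.37 against 19.1 and 2.24 RPKM. In each of these 3 the first Sl/Sl library topped both WT libraries and the second did not. Junb measured 12.6 and 12.3 RPKM in WT and 16.1 and 10.6 RPKM in Sl/Sl, Egr1 25.1 and 19.9 against 27.4 and 18.7 RPKM, and Jund 5.96 and 1.58 against 4.90 and 2.28 RPKM. For Junb and Egr1 the Sl/Sl pair lay around the WT pair, and for Jund inside it. Ier2 measured 86.2 and 120 RPKM in WT and 97.4 and 167 RPKM in Sl/Sl, and Ier3 38.6 and 37.0 against 25.2 and 68.4 RPKM. For these 2 genes it was Sl/Sl replicate 2, not replicate 1, that stood highest.

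Sl/Sl endothelium replicate 1 was the highest of the 4 endothelial libraries for 7 of the 10 genes, and the direction of 5 of them turned without it. In that fit 4 of 10 were above 0 and the median was -0.21, with Fosb at -2.13, Jun at -0.54, Egr1 at -0.27, Junb at -0.23 and Zfp36 at -0.19. Without Sl/Sl endothelium replicate 2 the median was 0.63, with Ier3 at -0.59 and Ier2 at -0.090, while Jund turned to 0.37. Without WT endothelium replicate 1 all 10 were above 0 (median 0.37, Jund at 1.18), and without WT endothelium replicate 2 the median was 0.29, with Egr1 at -0.13 and Fosb at -0.073. Fos and Atf3 stayed above 0 in all 4 of these fits.

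**Figure D3:**
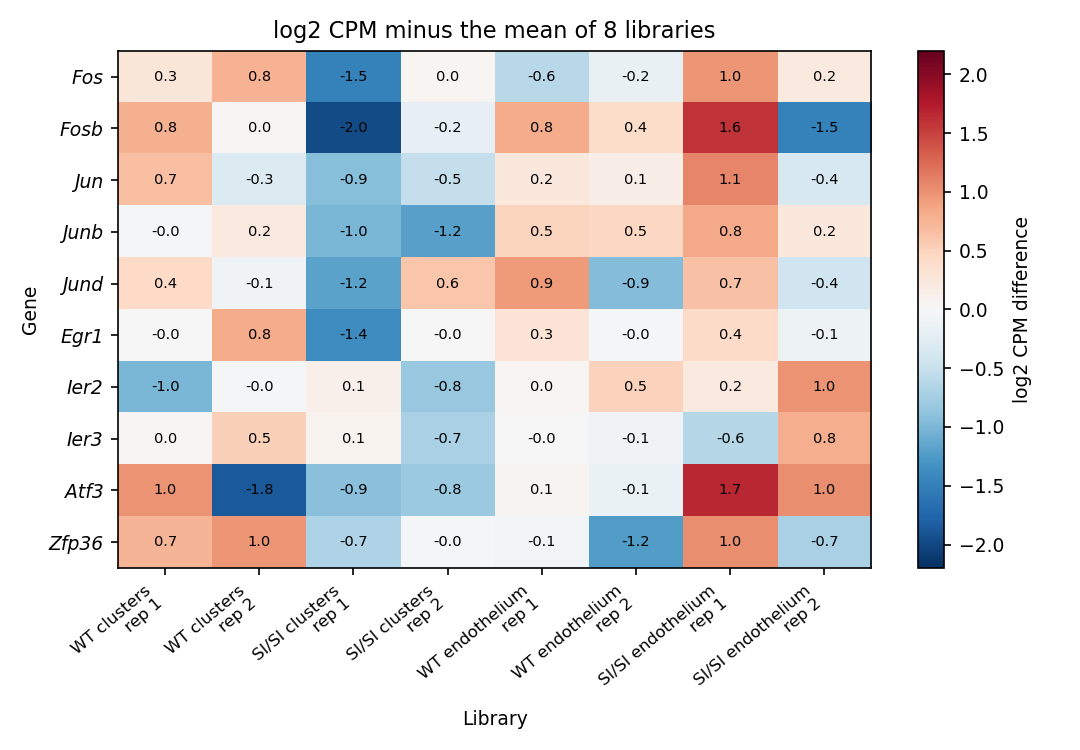
Heat map of log2 CPM of the 10 genes in the 8 libraries, each gene shown relative to its own mean over the libraries. Sl/Sl clusters replicate 1 is lowest among clusters for 6 of 10 genes and Sl/Sl endothelium replicate 1 highest among endothelium for 7 of 10.

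Whether the genotype difference itself differed between the cell types was tested as the interaction in the same fit, the change in clusters minus the change in endothelium. All 10 values were below 0, with a median of -1.32 on the log2 scale against 0.096 over all genes, of which 46.3% were below 0. The test called 0 genes (0%), and DESeq2 called 121, with 0 of the 10. Fos had an interaction of -2.07 (SE 0.70, unadjusted p = 0.0160) and Zfp36 of -2.11 (SE 0.93, unadjusted p = 0.0492), both with an adjusted p = 0.902 by the quasi-likelihood test of edgeR after Benjamini-Hochberg adjustment. These were 2 of 10 genes at an unadjusted p under 0.05, a level reached by 736 genes, 5.29% of those tested. Atf3 followed at -2.49 (SE 1.25, adjusted p = 0.906). Ier2 at -0.20 and Jund at -0.15 lay nearest to 0. When the filter on low counts was left out, Fos passed the threshold for this term at -2.05 with an adjusted p = 0.0195, in edgeR's quasi-likelihood test on a larger set of 17077 genes. That fit called 179 genes for this term.

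The sorted populations were then compared with each other over both genotypes, 4 libraries against 4. Endothelium and clusters differed in 2310 genes, 16.6% of those tested, with 8.48% of those tested higher and 8.12% lower in endothelium. Among the 10 immediate early genes 0 were called and 1 had an unadjusted p under 0.05, beside 26.6% of all genes. Of the 10, 9 had higher fitted values in endothelium, with a median log2 fold change of 0.39 against -0.067 over all genes, of which 47.3% were above 0. Ier2 ran from 41.7 to 90.7 RPKM in the 4 cluster libraries and from 86.2 to 167 RPKM in the 4 endothelial libraries. The groups overlapped through Sl/Sl clusters replicate 1, and the log2 fold change was 0.84 (SE 0.33, adjusted p = 0.141, the quasi-likelihood test of edgeR after Benjamini-Hochberg adjustment). This gene was called with DESeq2 (0.82, adjusted p = 0.0756), which called 3354 of 13908 genes in this comparison. It was also called by edgeR's quasi-likelihood test without the filter on low counts (0.84, adjusted p = 0.0174), among 3021 of 17077 genes.

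Junb was the member whose endothelial libraries, at 10.6 to 16.1 RPKM, all lay above its cluster libraries, at 3.87 to 10.4 RPKM. The step between 10.4 and 10.6 RPKM was small, the log2 fold change was 1.03 (SE 0.50, adjusted p = 0.230 by edgeR's quasi-likelihood test), and 10.1% of all genes tested had every endothelial library above every cluster library. Atf3 had a log2 fold change of 1.02 (SE 0.62, adjusted p = 0.336), which became 2.05 with an adjusted p = 0.0654 in edgeR's quasi-likelihood test when WT clusters replicate 1 was left out. Fosb at 0.87 (SE 0.68) and Jun at 0.58 (SE 0.42) followed, while Egr1 at 0.21, Jund at 0.15, Fos at 0.13 and Ier3 at 0.089 lay near 0. Zfp36 had the one value below 0, at -0.34 (SE 0.46). For Fos the cluster libraries ran from 23.1 to 110 RPKM and the endothelial libraries from 42.3 to 127 RPKM, and the direction turned without Sl/Sl clusters replicate 1 (-0.16), Sl/Sl endothelium replicate 1 (-0.086) or WT endothelium replicate 2 (-0.021). Egr1 turned to -0.058 without Sl/Sl clusters replicate 1, and Fosb to -0.25 without Sl/Sl endothelium replicate 1. Ier3 turned without Sl/Sl endothelium replicate 2 (-0.37), Sl/Sl clusters replicate 2 (-0.083) or WT clusters replicate 1 (-0.025). Jund turned without WT endothelium replicate 1 (-0.47), Sl/Sl endothelium replicate 1 (-0.17), Sl/Sl clusters replicate 1 (-0.17) or WT clusters replicate 2 (-0.0011).

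Within each genotype on its own, 6 of the 10 had fitted values below 0 in WT for endothelium against clusters (Fos, Zfp36, Ier3, Egr1, Atf3 and Jun, with a median of -0.15 over the 10), and in Sl/Sl none did. These fits share libraries with the genotype comparisons above, so their values are set side by side only. In WT embryos edgeR's quasi-likelihood test called 1146 genes (8.24%) and 0 of the 10, and DESeq2 called 2409 genes. At an unadjusted p under 0.05 in edgeR's test stood 0 of the 10, beside 19.5% of all genes. Of all genes 50.2% were below 0 in WT, with a median of -0.0032. Fos at -0.90 (SE 0.50), Zfp36 at -1.39 (SE 0.66) and Ier3 at -0.34 (SE 0.58) had every WT endothelial library below every WT cluster library, as had 25.5% of all genes. Ier2 at 0.74 (SE 0.46) and Junb at 0.37 (SE 0.71) had them above, as had 25.1% of all genes. In Sl/Sl embryos 393 genes were called (2.83%) and 0 of the 10, and DESeq2 called 1418 genes. In edgeR's test 3 of the 10 had an unadjusted p under 0.05, beside 14.4% of all genes. All 10 values were above 0 in Sl/Sl, with a median of 1.05. Of all genes 47.0% were above 0 there, with a median of -0.066. Atf3 at 2.26 (SE 0.91), Junb at 1.69 (SE 0.73), Jun at 1.25 (SE 0.60), Fos at 1.16 (SE 0.50) and Ier2 at 0.94 (SE 0.46) had every Sl/Sl endothelial library above every Sl/Sl cluster library, as had 22.0% of all genes. Adjusted p-values of edgeR's quasi-likelihood test in Sl/Sl began at 0.300 for Atf3, and Fos, at 0.328, passed only without the filter on low counts (1.16, adjusted p = 0.0389). Without the filter that test called 1266 of 17077 genes in Sl/Sl.

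Other genes of the early response were compared between the cell types in the same fit. Of 44 such genes listed beside the members, 41 were tested, and in endothelium 15 rose and 1 fell against clusters over both genotypes (the quasi-likelihood test of edgeR after Benjamini-Hochberg adjustment), with a median log2 fold change of 0.53. Over all genes tested 8.48% rose and 8.12% fell. This list and those below were chosen with earlier results of these data known, so setting them beside all genes is a description only. Plk2, a kinase induced by serum, rose the most surely: it measured 39.6 to 102 RPKM in clusters and 322 to 425 RPKM in endothelium, with a log2 fold change of 2.68 (SE 0.24, adjusted p = 0.000344). Dusp1, the phosphatase that switches MAP kinases off, measured 54.9 to 95.3 RPKM in clusters and 159 to 251 RPKM in endothelium, a log2 fold change of 1.39 (SE 0.24, adjusted p = 0.00758). Neither gene overlapped between the cell types. Sgk1, a serum- and glucocorticoid-induced kinase, rose by 3.08 (adjusted p = 0.00262), Cyr61, a matricellular target of SRF and YAP, by 2.95 (adjusted p = 0.00903), and Klf2, a transcription factor that answers flow in endothelium, by 2.05 (adjusted p = 0.0167). Btg2, which restrains proliferation, rose by 0.98 (adjusted p = 0.0248) and Gadd45g, a stress sensor, by 1.18 (adjusted p = 0.0252). The rise of Gadd45g was 2.07 (adjusted p = 0.0215, edgeR) within WT, while within Sl/Sl its fitted value was 0.30 (adjusted p = 0.787), and the interaction of 1.77 had an adjusted p = 0.902. The 2 relatives of Zfp36 in the list moved in opposite directions: Zfp36l1 rose by 1.84 (adjusted p = 0.00422) and Zfp36l2 fell by 1.18 on the log2 scale (adjusted p = 0.0302). Some of the 15, such as Klf2 and Cyr61, also belong to the standing endothelial program, and its part in these values was not tested. The count of 15 was 8 without Sl/Sl endothelium replicate 1, 9 without Sl/Sl clusters replicate 1 and 9 without Sl/Sl clusters replicate 2.

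**Figure D4:**
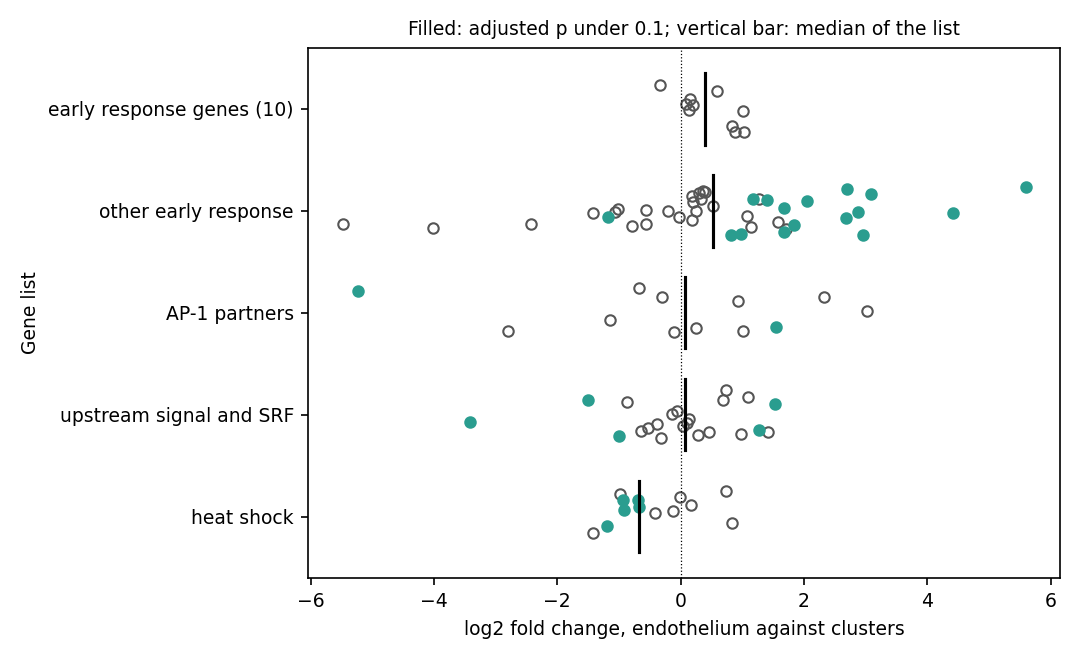
Log2 fold change of endothelium against clusters over both genotypes for the 10 immediate early genes and for 4 lists of related genes, 1 point per gene, with genes past the 0.1 threshold filled and a bar at the median of each list. None of the 10 is filled, 15 of 41 other early response genes are filled above 0, and 5 of 13 heat shock genes are filled below 0. The lists were chosen with earlier results of these data known.

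Partners and upstream factors of the 10 were measured in the same way. Of 12 AP-1 partner genes tested, Batf, which pairs with Jun proteins in blood cells, fell in endothelium: it measured 46.5 to 110 RPKM in clusters and 0.775 to 4.35 RPKM in endothelium, a log2 fold change of -5.23 (adjusted p = 0.00209, edgeR's quasi-likelihood test). Fosl2, a Fos relative, rose by 1.55 (adjusted p = 0.0510), with 1.95 to 5.73 RPKM in clusters and 8.55 to 15.5 RPKM in endothelium. Its call was lost when any of 5 libraries was left out, WT clusters replicate 1 (adjusted p = 0.104), WT clusters replicate 2 (0.138), Sl/Sl clusters replicate 1 (0.116), WT endothelium replicate 1 (0.129) or Sl/Sl endothelium replicate 1 (0.151). Of 22 genes of the upstream signal and SRF, the SRF cofactor Mkl2 rose by 1.27 (adjusted p = 0.0111) and the SRF partner Elk3, of the ternary complex family, rose by 1.53 (adjusted p = 0.0212). Mkl1, the other SRF cofactor, fell by 3.41 (adjusted p = 0.0144, edgeR) over both genotypes and by 6.49 (adjusted p = 0.0147) within WT. Within Sl/Sl its fitted value was -0.32 (adjusted p = 0.920, edgeR), from 157 and 230 counts in clusters and 97 and 123 in endothelium, and the interaction of -6.17 had an unadjusted p = 0.00127 and an adjusted p = 0.902. Rps6ka1, a kinase downstream of ERK, fell by 1.51 (adjusted p = 0.0821), and Map2k2, the kinase MEK2, fell by 0.99 (adjusted p = 0.0920). The call of Rps6ka1 ended without any 1 of 6 libraries, all but WT endothelium replicate 1 and Sl/Sl endothelium replicate 2 (adjusted p from 0.108 to 0.187), and that of Map2k2 without any 1 of 7, all but Sl/Sl endothelium replicate 2 (adjusted p from 0.102 to 0.286). Heat shock genes are often induced together with early genes in handled cells. Of 13, 5 fell in endothelium and 0 rose, beside 8.12% and 8.48% of all genes, with a median of -0.68. Hsp90aa1, a cytosolic chaperone, measured 198 to 331 RPKM in clusters and 133 to 136 RPKM in endothelium and fell by 0.93 (adjusted p = 0.00369). Hsp90ab1 fell by 0.68, the mitochondrial chaperone Hspd1 by 0.93, Hsph1 by 1.20 and Hspa8 by 0.69. The call of Hsph1 ended without Sl/Sl clusters replicate 2 (adjusted p = 0.119, edgeR) or WT endothelium replicate 2 (0.102). That of Hspa8 ended without WT clusters replicate 2 (adjusted p = 0.147, edgeR), Sl/Sl clusters replicate 1 (0.113) or replicate 2 (0.122), WT endothelium replicate 2 (0.136) or Sl/Sl endothelium replicate 2 (0.145).

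Between genotypes none of these lists held a called gene in edgeR's quasi-likelihood test with the filter on low counts. In clusters 27 of the 41 other early response genes had fitted values below 0 in Sl/Sl (median -0.32), beside 47.5% of all genes, and 12 had both Sl/Sl libraries under both WT libraries, beside 16.3% of all genes. Nr4a1, an orphan nuclear receptor induced like Fos, measured 18.1 and 31.4 RPKM in WT clusters and 8.16 and 7.98 RPKM in Sl/Sl clusters. The genotypes were apart with a tight Sl/Sl pair, and the log2 fold change was -1.62 (SE 0.60, unadjusted p = 0.0248, adjusted p = 1). Mcl1, an antiapoptotic relative of Bcl2, measured 63.5 and 40.8 against 26.0 and 30.8 RPKM (log2 fold change -0.88, unadjusted p = 0.0217). Gadd45g stood on the other side, with 32.7 and 26.1 RPKM in WT clusters and 104 and 84.4 RPKM in Sl/Sl clusters, a log2 fold change of 1.68 (SE 0.39, adjusted p = 0.470). This was the gene of these lists that DESeq2 called in clusters (1.68, adjusted p = 0.0261), as did edgeR's quasi-likelihood test without the filter (1.71, adjusted p = 0.0119).

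Among AP-1 partners in clusters, Batf3 (1.55), Maf (1.20) and Batf (-0.69) had the smallest p-values, the first at an unadjusted p = 0.281, and Batf turned to 0.021 without WT clusters replicate 2. Of the upstream genes, Mkl2 stood at 0.89 (unadjusted p = 0.0252), the stress kinase Mapk14 at -0.63 and Elk4 at 3.70, the last from counts of 11 and 0 in WT and 53 and 117 in Sl/Sl clusters. Heat shock genes had 10 of 13 values below 0 in Sl/Sl clusters (median -0.43), and 8 of the 13 lay below WT without overlap, beside 16.3% of all genes. The smallest p-values belonged to Hsp90aa1 at -0.52 (unadjusted p = 0.0235), Hsp90ab1 at -0.39 and Hspd1 at -0.49.

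In endothelium 22 of 41 other early response genes were above 0 in Sl/Sl (median 0.14). The smallest p-values there belonged to Ptgs2, with counts of 0 and 0 in WT and 70 and 0 in Sl/Sl, to Hbegf, an EGF family ligand, at -1.24, and to F3, with counts of 0 and 85 in WT and 0 and 0 in Sl/Sl. Ptgs2 and F3 each rest on a single library. Mkl1 had 6 and 2 counts in WT endothelium and 97 and 123 in Sl/Sl endothelium, a log2 fold change of 5.03 (SE 1.06, unadjusted p = 0.000951, adjusted p = 1), and it was called with DESeq2 (5.07, adjusted p = 0.00165) and with edgeR without the filter (5.04, adjusted p = 0.0955). Hras stood at -1.30 and Mapk14 at 0.83. Of the AP-1 partners Mafg stood at 2.4, Batf at 1.25 and Mafk at -1.43, Batf turning to -0.45 without Sl/Sl endothelium replicate 2. Of the heat shock genes 8 of 13 were below 0 (median -0.057), and those with the smallest p-values were above it: Hsph1 stood at 0.59, Hspa1a at 1.97 and Bag3 at 1.14.

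The 10 genes did not all move as a block across the libraries: Ier2 and Ier3 ran apart from most of the others. Among the members other than Ier2 and Ier3, every pair had a positive Pearson correlation of log2 CPM. It ran from 0.0758 for Egr1 with Atf3 to 0.890 for Fosb with Jun. Counts of members in the same direction are therefore not counts of independent genes. Over the 8 libraries, which share 2 cell types and 2 genotypes, the Pearson correlation of log2 CPM with Fos was 0.827 for Egr1, 0.656 for Zfp36, 0.589 for Jun, 0.581 for Fosb and 0.531 for Junb. It was 0.454 for Jund, 0.309 for Atf3, -0.0521 for Ier2 and -0.0602 for Ier3. Among 13907 genes ranked by this measure Egr1 took place 47 and Zfp36 place 293, so many genes outside the list ran closer to Fos than most members did. The 5 nonmember genes closest to it were Lbh (0.965), Dopey1 (0.945), Trps1 (0.931), Arhgef3 (0.909) and Add3 (0.905). Picked as the highest over so many genes, with 8 points each, these values are a description of 8 libraries.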

How the data were processed

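RNA from 8 samples of 100 sorted cells (2 for each of 4 groups) was made into Smart-seq2 libraries by the authors, who aligned read pairs to mm9 with STAR 2.4.2a, merged lanes and assigned reads to genes by featureCounts (Subread 1.4.5). The deposited values are these raw counts per gene, with exon positions and exon length. The annotation, strand setting and treatment of reads with several matches are not given in the sources used here, so overlapping genes and close copies could share or lose reads. Libraries held 8933236 to 13428214 counts on genes. Without molecular identifiers, counts are not independent molecules, and the limit of 3 counts set by a count of 0 covers counting error only. Spreadsheet dates stood in place of 27 gene names, and these genes are not named.

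Genes were kept with filterByExpr (13908 of 24015), scaled by TMM and tested with the quasi-likelihood test of edgeR 4.0.16 (limma 3.58.1, R 4.3.3) on 1 fit of all 8 libraries, with Benjamini-Hochberg adjustment over all genes tested and a threshold of 0.1. The SE is the absolute log2 fold change over the square root of F. CPM and RPKM used TMM-scaled totals, and log2 CPM a prior count of 2. The test was tried first on simulated counts. Alternatives were DESeq2 1.42.0, RLE factors, no filter, a fit per cell type, plain totals, a replicate block and leaving out each library. Leaving out 1 library left a lone sample in its group, assumed to vary like the others. All 10 members were named, with, of each related list, the called genes (at most 8, by p) or the 3 with the smallest p, and the 5 genes closest to Fos. Zfp36l2, outside this rule, was named after its values were seen. The members and lists were chosen with earlier results of these data known.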

Additional observations from a re-analysis of the deposited data

How the results depend on the processing

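The 10 genes had at least 45 counts in every library, and the 2 libraries of a group differed by up to 8.55-fold. Genes called in clusters between genotypes numbered 155 with DESeq2, 253 without the filter, 8 with the replicate block and 0 to 13 with a library left out, against 0. In endothelium they numbered 119 with DESeq2, 65 without the filter and 2 in the fit of 4 libraries, against 0. For the interaction they numbered 121 with DESeq2, 179 without the filter and 0 to 4 with a library left out. Over both genotypes leaving out a library gave 1438 to 1983 genes between cell types, against 2310. In WT alone the counts were 2409 with DESeq2, 1990 without the filter and 412 to 839 with a library left out, and in Sl/Sl alone 1418, 1266 and 115 to 272. Between cell types over both genotypes DESeq2 called 3354 genes, and the fit without the filter called 3021 of 17077 genes. Leaving out a library takes samples from the fit. The cause of the other differences was not tested. Of the 10 genes, 1 was called between cell types with DESeq2 and 1 without the filter (Ier2 both times), 0 to 1 with a library left out (Atf3), and 1 without the filter for the interaction and 1 in Sl/Sl alone (Fos both times). Replicate numbers are shared by the groups, and the replicate differences of all genes tested correlated at 0.157 between the cluster groups and from -0.111 to 0.0265 between the other 5 pairs of groups. Over the 10 genes the correlations ran from -0.736 to 0.402. Replicate 1 had the higher endothelial and macrophage marker sums in both cluster groups. Lyz2 had the most counts of the macrophage markers in each cluster library. In WT clusters Lyz2, Csf1r, Mrc1, Fcgr1, Cd68 and Timd4 were higher in replicate 1. Cx3cr1, Emr1, C1qa, C1qb and C1qc were higher in replicate 2 of WT clusters. In both endothelial groups 8 of the 10 genes were lower in replicate 2. Since not every pair of groups was over 0.1, the numbers are not taken to pair the libraries. With the replicate block 0 of the 10 were called in any comparison, Fosb in endothelium turned to -0.084 and Jund between cell types to -0.011. On plain totals Junb and Ier3 in WT endothelium were 12.0 and 36.4 RPKM.

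Leaving out each library in turn, log2 fold changes in clusters ran from -1.89 to 1.00 for Atf3, -1.17 to 0.021 for Batf, -0.39 to 0.71 for Ier2 and -1.41 to 0.42 for Jund. In endothelium they ran from -0.27 to 0.28 for Egr1, -2.13 to 0.96 for Fosb, -0.090 to 0.69 for Ier2, -0.59 to 0.86 for Ier3, -0.54 to 0.88 for Jun, -0.23 to 0.37 for Junb, -0.74 to 1.18 for Jund, -0.19 to 1.64 for Zfp36 and -0.45 to 2.03 for Batf. Between cell types they ran from -0.058 to 0.63 for Egr1, -0.16 to 0.61 for Fos, -0.25 to 1.46 for Fosb, -0.37 to 0.36 for Ier3 and -0.47 to 0.75 for Jund.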
